A study of Mus musculus with 8 samples.

Results

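The genes described here encode 10 chains of the receptors for IL-6, IL-12, IL-23, IL-27, IL-10 and interferon-gamma, namely Il6ra, Il6st, Il12rb1, Il12rb2, Il23r, Il27ra, Il10ra, Il10rb, Ifngr1 and Ifngr2. They were chosen by name from the 29924 gene names on the array, and 9 of them were among the 15764 genes tested, Il12rb2 being the exception. Where a gene had several probes, the brightest on average over all arrays (log2 scale) was used. Levels were measured by 8 one-color Agilent arrays, 1 for each of 4 CD4 T cell types on day 12 (d12) and 1 on day 25 (d25) after KLH in alum had been given s.c. All cells came from peripheral lymph nodes (pLNs) of mice of the strain B6.Cg-Foxp3<tm1Mal>, in which EGFP marks cells that express Foxp3. The groups were naïve CD4 T cells (here naïve cells, GFP-PD1loGL7-), follicular helper T (TFH) cells (GFP-PD1hiGL7+), regulatory T (Treg) cells (GFP+PD1loGL7-) and follicular regulatory T (TFR) cells (GFP+PD1hi, GL7+ and GL7-). Every group was immunized, and no array of unimmunized mice was analysed here. The labels give pools of 8 to 15 mice of mixed sex at an age of 8 to 14 weeks and 25 ng of RNA per array.

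Levels are normalized intensities in relative units (RU) with a floor of 20. A probe counts as well above background if the scanner software set that flag for a share above 0.5 of the spots kept. Differences are on the log2 scale, from a limma fit of cell type and day with 2 arrays of each cell type. They are given as estimate ± standard error, which rests on a spread estimated from all arrays together and moderated by limma. Calls required an adjusted p (Benjamini-Hochberg, over all genes tested) below 0.05. The p values measure only the spread between these arrays, and in sorted bulk cells fewer expressing cells and less RNA per cell cannot be told apart. Slide 1 held every d12 array, slide 2 the d25 arrays of Foxp3- cells and slide 3 those of Foxp3+ cells. Comparisons of Foxp3+ with Foxp3- cells thus span slides at d25, and a day effect cannot be told apart from a slide effect. Of the probes on an array, 46.3% to 50.4% were well above background. Foxp3 had 37266 to 49260 RU in Treg and TFR cells and at most 358 RU in the other cells. Pdcd1, the gene of PD1, had 87318 to 303525 RU in TFH and TFR cells and at most 4625 RU in the others. Markers of other cell types were not absent, since the summed level of 9 B cell genes was 5828 to 16841 RU with the highest value in TFH cells at d25, and that of 9 myeloid genes was 19092 to 33102 RU with the highest value in naïve cells at d12, most of it from Itgam (13020 to 28500 RU). Cd68 of this list was higher in TFH than in naïve cells (2.97, adjusted p = 0.000344) and in TFR than in Treg cells (2.76, adjusted p = 0.00086). Of 4 genes of CD8 T and NK cells, with a summed level of 2881 to 6274 RU, Klrb1c was higher in both follicular cell types (4.10, adjusted p = 0.00403, and 3.92, adjusted p = 0.0063), and Cd8b1 lower (-1.08, adjusted p = 0.00604, and -0.96, adjusted p = 0.0111). Their part in the results was not tested. Of the defining B cell genes, Pax5 was at the floor of 20 on every array.

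The receptors of these cytokines are pairs or small complexes of chains that signal through Janus kinases and STAT factors. Il6ra encodes the chain that binds IL-6, and Il6st encodes gp130, the signaling chain shared by the IL-6 family and, together with Il27ra, by the IL-27 receptor. Il12rb1 encodes the chain common to the IL-12 receptor, in which it pairs with the product of Il12rb2, and the IL-23 receptor, in which it pairs with that of Il23r. Il10ra encodes the specific chain of the IL-10 receptor and Il10rb the accessory chain, which is also used by receptors for IL-22 and interferon-lambda. Ifngr1 and Ifngr2 encode the binding chain and the signaling chain of the receptor for interferon-gamma. IL-6 is known to act through STAT3 in early TFH differentiation and IL-12 through STAT4.

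Since a level rests on 1 probe, the probes of both genes with a pair of them are shown by their first 30 bases, as listed in the files, in lower case with no base marked. The Il12rb1 probes lie on chromosome 8, build NCBI37, plus strand, at 73345261 to 73345320 (first probe, the one used) and at 73343240 to 73343299 (second probe). The Il12rb2 probes lie on chromosome 6, minus strand, at 67242256 to 67242315 (first) and 67242012 to 67242071 (second).
Il12rb1 first probe: agtttccctattagagtattgggcacttaa
Il12rb1 second probe: tttatccatcattttcgcgtctctgggaag
Il12rb2 first probe: atatttctctttccatttttgcatcaagtt
Il12rb2 second probe: taaggtggcaatacaccaacactgatatca

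**Figure D1:**
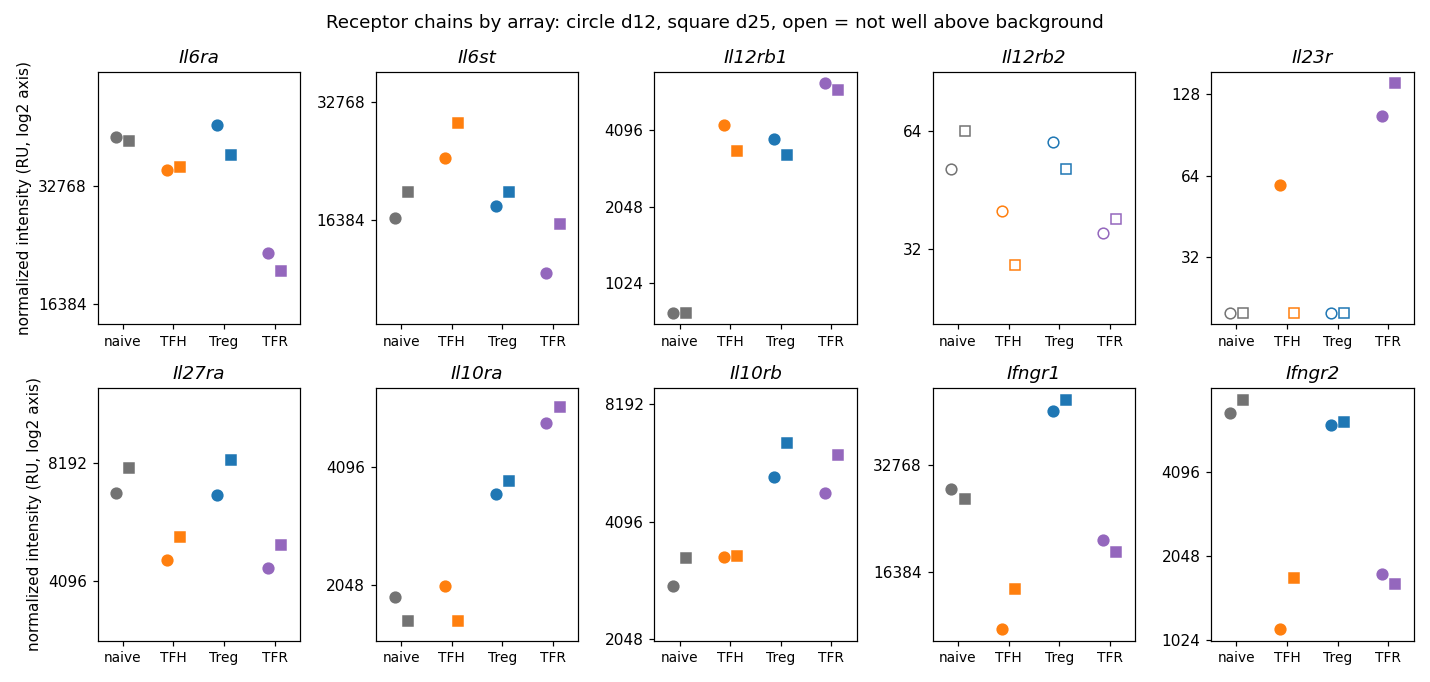
Normalized intensity in RU (log2 axis, a separate range for each gene) of the 10 receptor chains on the 8 arrays, by cell type. Circles are d12, squares d25, and open symbols were not well above background. Il6ra is lowest in TFR cells, Il12rb1 lowest in naïve cells, Il10ra highest in TFR cells and Ifngr2 low in TFH and TFR cells, while Il12rb2 has open symbols only.

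Among the chains of the IL-6 receptor, Il6ra was lower in TFR cells than in any other cell type, and Il6st was highest in TFH cells. Il6ra (probe on chromosome 3, 89674054 to 89674113, minus strand) had 43683 and 42720 RU in naïve cells at d12 and d25, 36059 and 36565 RU in TFH cells, 46782 and 39252 RU in Treg cells, while TFR cells had 22091 and 19929 RU. Both TFR arrays lay below all 6 other arrays. The difference between TFR and Treg cells was -1.03 ± 0.10 (2.04-fold lower, adjusted p = 0.00291), and the call was kept under all 20 alternatives to the processing. TFR cells were lower than TFH cells by -0.79 ± 0.10 (adjusted p = 0.00875), a call that was lost without the TFR array of d12 (adjusted p = 0.0717) or of d25 (0.0741). Naïve CD4 T, Treg and TFH cells, in this order from high to low, were not called different from their neighbours. TFH and naïve cells differed by -0.25 ± 0.10 (adjusted p = 0.104), which passed the threshold when the 75th percentile was scaled and quantile normalization left out (-0.37, adjusted p = 0.0462) and under normexp background correction (-0.29, adjusted p = 0.0408).

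Il6st (chromosome 13, 113296586 to 113296645, plus strand) reached 23573 and 29005 RU in TFH cells, compared to 16591 and 19348 RU in naïve cells, 17728 and 19244 RU in Treg cells, while TFR cells had 11959 and 16029 RU. TFH arrays did not overlap with those of any other cell type, and both TFR arrays lay below the lowest of the other arrays. Il6st was higher in TFH than in naïve cells by 0.55 ± 0.10 (1.46-fold, adjusted p = 0.0128) and lower in TFR than in TFH cells by -0.92 ± 0.10 (adjusted p = 0.00626). Compared to Treg cells, TFR cells were lower by -0.42 ± 0.10 (adjusted p = 0.0335), whereas Treg and naïve cells, the neighbours in the middle, differed by 0.04 ± 0.10 (adjusted p = 0.836). The call between TFR and Treg cells was lost when any of the 4 arrays of these cell types was left out (adjusted p = 0.0728 to 0.177), or either naïve array (0.0654), without the day term (0.162), and with slide as a block (0.0667). The call for TFH cells was lost without either naïve array (0.0648 and 0.0771), without the TFH array of d25 (0.0506) and without the day term (0.0738), and that between TFR and TFH cells without the TFR array of d12 (0.0561).

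The change from naïve to TFH cells and the change from Treg to TFR cells therefore had opposite signs for Il6st. For Il6ra, the change was larger in Foxp3+ cells. The difference between both changes was -0.96 ± 0.15 for Il6st (adjusted p = 0.027) and -0.78 ± 0.15 for Il6ra (adjusted p = 0.0425). These calls did not hold when any single array was left out, with the adjusted p between 0.0628 and 0.116 for Il6st and between 0.0597 and 0.161 for Il6ra. Without the day term, it was 0.127 and 0.0758.

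In the family of the IL-12 receptor, Il12rb1 was lowest in naïve cells and highest in TFR cells. Il12rb1 had 786 and 786 RU in naïve cells, 4260 and 3372 RU in TFH cells, 3760 and 3265 RU in Treg cells, while TFR cells had 6220 and 5841 RU. The ranges of TFH and Treg cells overlapped, and those of naïve and TFR cells were separate from all others. TFH cells exceeded naïve cells by 2.27 ± 0.11 (4.82-fold, adjusted p = 0.00028) and Treg cells exceeded them by 2.16 ± 0.11 (4.46-fold, adjusted p = 0.00153). Both calls were kept under all 20 alternatives. TFR cells were further above Treg cells by 0.78 ± 0.11 (adjusted p = 0.00707) and above TFH cells by 0.67 ± 0.11 (adjusted p = 0.0172), while Treg and TFH cells differed by -0.11 ± 0.11 (adjusted p = 0.459). The former call was lost without the d25 array of Treg (0.0547) or TFR cells (0.0596). The latter was lost without the TFH array of d25 (0.0613), without either TFR array (0.103 and 0.117) and with slide as a block (0.0906).

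The second Il12rb1 probe shown above was dimmer, with 166 and 160 RU in naïve cells, 296 and 248 RU in TFH cells, 330 and 365 RU in Treg cells, while TFR cells had 410 and 379 RU. It gave the same directions in these 4 comparisons with smaller differences, namely 0.73 for TFH versus naïve, 1.09 for Treg versus naïve, 0.18 for TFR versus Treg, and 0.54 for TFR versus TFH cells. Only between Treg and TFH cells did the sign differ, with 0.36 by the second and -0.11 by the first probe. The increase of Il12rb1 was smaller from Treg to TFR than from naïve to TFH cells, with a difference between both changes of -1.49 ± 0.16 (adjusted p = 0.0117) by the first probe and -0.55 by the second. The call was lost without the naïve array of d12 (0.0548) and without any array of Treg or TFR cells (0.062 to 0.0776).

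Il12rb2, the partner chain for IL-12, lay within the background range by both probes on every array, and no difference was estimated for it. The first probe gave 29 to 64 RU and the second was at the floor of 20 on all 8 arrays. This contrasts with Il12rb1 only in detection, as levels of different probes cannot be compared.

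Il23r (chromosome 6, 67372966 to 67373025, minus strand), the partner chain for IL-23, was dim. TFR cells had 106 and 140 RU, TFH cells had 59 RU at d12, and the other 5 arrays were at the floor of 20 and not well above background. Both TFR arrays thus exceeded all others, and only these and the TFH array of d12 were well above background. Il23r entered the fit through TFR cells alone, where it is high, so that its comparisons with TFR cells are given without a test. Since Treg and naïve cells give only a limit, the TFR level was at least 2.29-fold that of Treg cells and at least 2.08-fold that of naïve cells, taking the lowest signal well above background on each array for the dimmer side. Against TFH cells, of which 1 of 2 arrays was well above background, it was at least 2.87-fold.

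Il27ra (chromosome 8, 86554885 to 86554944, minus strand), which pairs with gp130, was lower in both follicular cell types. It had 6880 and 7972 RU in naïve cells and 6783 and 8336 RU in Treg cells, compared to 4653 and 5298 RU in TFH cells and 4420 and 5067 RU in TFR cells. The 4 arrays of TFH and TFR cells lay below the 4 arrays of naïve and Treg cells without overlap. TFH cells were lower than naïve cells by -0.58 ± 0.08 (1.49-fold, adjusted p = 0.00522) and TFR cells lower than Treg cells by -0.67 ± 0.08 (1.59-fold, adjusted p = 0.00479). Of the alternatives, only the added requirement of an absolute difference of at least 1 removed these calls. TFR and TFH cells differed by -0.07 ± 0.08 (adjusted p = 0.588), Treg and naïve cells by 0.02 ± 0.08 (adjusted p = 0.904), and both changes by -0.09 ± 0.12 (adjusted p = 0.684). Within each pair, the order is thus not resolved.

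Both chains of the IL-10 receptor were higher in Foxp3+ cells. Il10ra (chromosome 9, 45062237 to 45062296, minus strand) had 1908 and 1660 RU in naïve cells, 2032 and 1652 RU in TFH cells, 3501 and 3780 RU in Treg cells, while TFR cells had 5289 and 5817 RU. The levels increased from Foxp3- over Treg to TFR cells without overlap, while naïve and TFH arrays overlapped. TFR cells exceeded TFH cells by 1.60 ± 0.14 (3.03-fold, adjusted p = 0.00333), a call kept under all 20 alternatives. Treg cells exceeded naïve cells by 1.03 ± 0.14 (2.04-fold, adjusted p = 0.0179) and TFR cells exceeded Treg cells by 0.61 ± 0.14 (1.52-fold, adjusted p = 0.0281). TFH and naïve cells differed by 0.04 ± 0.14 (adjusted p = 0.835). The call between Treg and naïve cells was lost without any one array of these cells (0.0848 to 0.129) and with slide as a block (0.0518), and that between TFR and Treg cells without any one array of these cells (0.0743 to 0.158).

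Il10rb (chromosome 16, 91425744 to 91425803, plus strand) had 2807 and 3305 RU in naïve cells, 3315 and 3352 RU in TFH cells, 5315 and 6505 RU in Treg cells, while TFR cells had 4848 and 6071 RU. All 4 arrays of Foxp3+ cells exceeded the 4 arrays of Foxp3- cells, and Treg and TFR arrays overlapped. Treg cells were higher than naïve cells by 0.95 ± 0.11 (1.93-fold, adjusted p = 0.0106) and TFR cells higher than TFH cells by 0.70 ± 0.11 (1.63-fold, adjusted p = 0.0141). In contrast to Il10ra, no increase was called from Treg to TFR cells (-0.12 ± 0.11, adjusted p = 0.435), nor from naïve to TFH cells (0.13 ± 0.11, adjusted p = 0.371). Both calls cross slides at d25 and were lost with slide as a block (0.0644 and 0.0729). They were also lost without either TFR array (0.0791 and 0.101) for TFR versus TFH cells and without any one array of Treg or naïve cells (0.0719 to 0.0975) for the other.

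Both chains of the receptor for interferon-gamma were lower in follicular cells, whether they expressed Foxp3 or not. Ifngr1 (chromosome 10, 19329923 to 19329982, plus strand) had 28051 and 26370 RU in naïve cells, 11252 and 14629 RU in TFH cells, 46832 and 50362 RU in Treg cells, while TFR cells had 20174 and 18573 RU. No cell types overlapped, and the order from high to low was Treg, naïve, TFR and TFH cells. TFH cells were below naïve cells by -1.08 ± 0.15 (2.12-fold, adjusted p = 0.00466) and TFR cells below Treg cells by -1.33 ± 0.15 (2.51-fold, adjusted p = 0.00383), and both calls were kept under all 20 alternatives. Neighbours in the order were closer to the threshold. Treg cells exceeded naïve cells by 0.84 ± 0.15 (adjusted p = 0.0335), naïve cells exceeded TFR cells (TFR minus naïve -0.49 ± 0.15, adjusted p = 0.0431, not recomputed under the alternatives), and TFR cells exceeded TFH cells by 0.59 ± 0.15 (adjusted p = 0.0492). The first of these was lost without any one array of Treg, naïve or TFR cells (0.077 to 0.193) and with slide as a block (0.123), and the last under 14 alternatives, among them slide as a block (0.132) and leaving out any array except that of TFH cells at d25 (0.0805 to 0.254).

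Ifngr2 (chromosome 16, 91563982 to 91564041, plus strand) had 6636 and 7430 RU in naïve cells and 6000 and 6176 RU in Treg cells, and fell to 1117 and 1703 RU in TFH cells and 1754 and 1617 RU in TFR cells. The 4 follicular arrays were all far below the 4 others, and TFH and TFR arrays overlapped. The decrease was -2.35 ± 0.19 in TFH cells (5.09-fold, adjusted p = 0.000965) and -1.85 ± 0.19 in TFR cells (3.61-fold, adjusted p = 0.00308), with both calls kept under all 20 alternatives. Of the genes tested, 6.35% and 7.3% had a larger absolute difference in these comparisons. TFR and TFH cells differed by 0.29 ± 0.19 (adjusted p = 0.33) and Treg and naïve cells by -0.21 ± 0.19 (adjusted p = 0.545). Unlike Ifngr1, Ifngr2 was thus not called different between Foxp3+ and Foxp3- cells of the same kind, and the difference between both changes was not called for either chain (0.49 ± 0.27, adjusted p = 0.326 for Ifngr2 and -0.24 ± 0.21, adjusted p = 0.536 for Ifngr1).

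As Ifngr1 and Ifngr2 fell together, their promoters are shown as the 250 bases before the start in RefSeq, build GRCm38.p6, plus strand for both, which is Ifngr1 at chr10:19591699-19591948 and Ifngr2 at chr16:91546809-91547058. Capitals mark matches to the GC box GGGCGG on either strand, and in Ifngr2 matches adjoin or share a base, so that 2 matches form 1 run of capitals.
Ifngr1: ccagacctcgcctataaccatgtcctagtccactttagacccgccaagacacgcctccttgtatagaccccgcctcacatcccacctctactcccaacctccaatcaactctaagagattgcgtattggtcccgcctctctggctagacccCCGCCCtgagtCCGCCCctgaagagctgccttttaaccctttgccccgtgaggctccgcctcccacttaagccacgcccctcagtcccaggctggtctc
Ifngr2: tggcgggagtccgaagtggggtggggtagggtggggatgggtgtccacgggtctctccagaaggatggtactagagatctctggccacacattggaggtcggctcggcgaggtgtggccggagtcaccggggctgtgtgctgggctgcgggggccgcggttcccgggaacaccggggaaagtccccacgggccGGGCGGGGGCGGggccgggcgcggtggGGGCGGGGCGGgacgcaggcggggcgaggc

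Such a match was present 2 times for Ifngr1 and 4 times for Ifngr2, and 32.7% of the 32851 promoters in the table hold at least 1 in this window. The STAT site TTCNNNGAA, which reads the same on both strands, was absent from both windows. Of the 10 genes, 6 had a promoter in the table, and 1 of these, Il12rb2, held the site (TTCTCAGAA), compared to 7.02% of all promoters. The GC content was 59.2% for Ifngr1 and 74.0% for Ifngr2, against a median of 52.4% over all promoters. These matches are descriptions of the letters only.

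**Figure D2:**
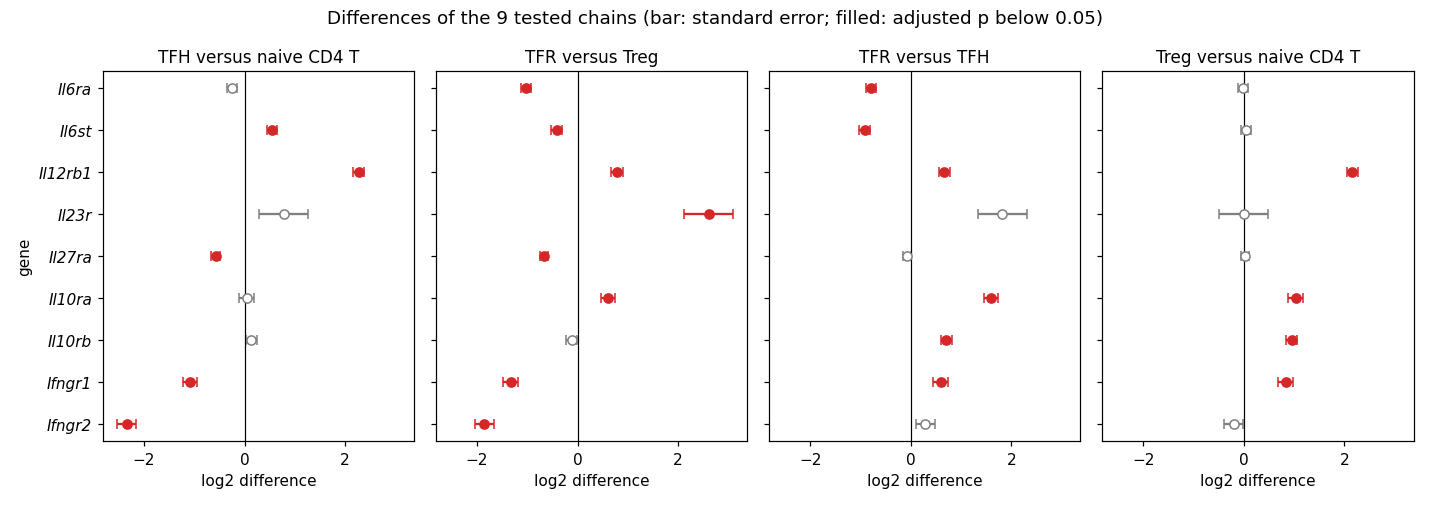
Log2 differences (x axis) of the 9 tested receptor chains (y axis) in 4 comparisons. Bars are standard errors, and filled red symbols have an adjusted p below 0.05. Ifngr1, Ifngr2, Il27ra and Il6ra lie left of 0 in both follicular comparisons, with Il6ra not called between TFH and naïve cells. Il10ra, Il10rb, Il12rb1 and Ifngr1 lie right of 0 in both comparisons of Foxp3+ with Foxp3- cells. The Il23r points rest on values at the floor, and the gene was tested only because it was high in TFR cells.

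Counted over the 9 tested chains, which include Il23r through TFR cells alone, TFH cells had 2 above and 3 below naïve cells. In this comparison 46.6% of all genes tested were called, so that 5 of 9 is near the background. Between TFR and Treg cells, 3 were higher, 1 of them Il23r, and 5 lower, and 39.7% of all genes were called. Between TFR and TFH cells, 4 were higher and 2 lower (background 22.1%), and between Treg and naïve cells, 4 were higher and none lower (background 9.88%). The median difference of the 9 chains was 0.04, -0.42, 0.59 and 0.04 in these comparisons, compared to -0.07, -0.08, -0.02 and -0.01 over all genes tested. Without the filter on dim probes, the calls of Il12rb1 and Il10rb between TFR and TFH cells were lost (adjusted p = 0.0626 and 0.054), as were those of Il6st and Il10ra between TFR and Treg cells (0.0758 and 0.101), of Il10ra and Il10rb between Treg and naïve cells (0.0912 and 0.0517), and of Ifngr1 in the comparisons across Foxp3 expression (0.162 and 0.134). For the pairs needed to order the levels, all 9 differed between TFR and naïve cells with 4 higher, again with Il23r, and 5 lower (background 53.1%), and 6 differed between Treg and TFH cells with 5 higher and 1 lower (background 39.8%). Calls of these pairs were not recomputed under the alternatives.

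The difference between the change in Foxp3+ cells and the change in Foxp3- cells was called for 3 of the 9 chains, all negative, compared to 8.49% of all genes. These were Il6ra, Il6st and Il12rb1. No chain was called between d25 and d12, where 0.0698% of all genes tested were called, that is 11 of 15763. The day differences of the chains were between -0.29 and 0.27.

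**Figure D3:**
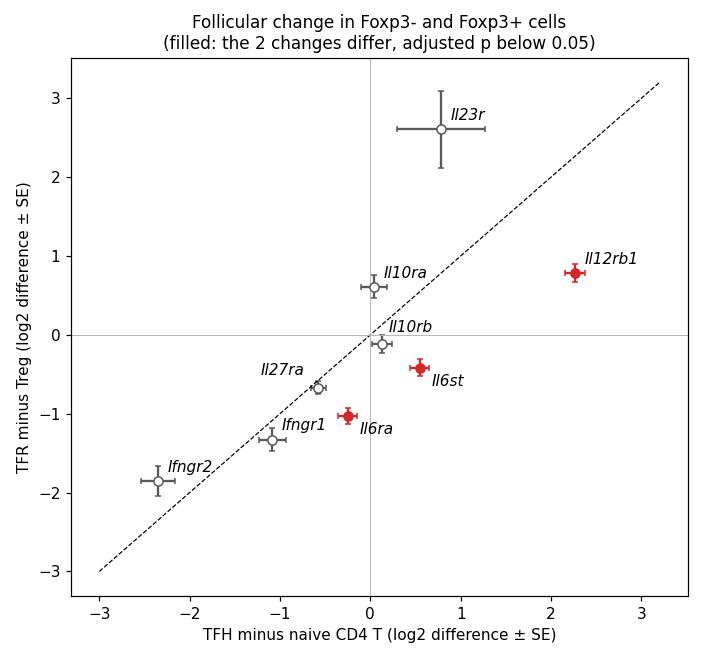
Log2 difference between TFH and naïve cells (x axis) against that between TFR and Treg cells (y axis) for the 9 tested chains, with standard errors. The dashed line marks equal change. The filled symbols Il6ra, Il6st and Il12rb1 lie below the line, where the difference of both changes was called, and Il6st lies right of 0 on the x axis and below 0 on the y axis.

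The ligands of these receptors were measured in the same cells. Transcripts of Il12a, Il12b and Il23a, the subunits of IL-12 and IL-23, were not well above background on any array, and neither was Ctf1 (cardiotrophin-1). Of the 14 ligand genes listed, 9 were tested. Between TFH and naïve cells 3 were higher, with Il6 tested only through follicular cells, and 3 lower (46.6% of all genes tested called). Between TFR and Treg cells 5 were higher (with Il6 and Lif, tested only through follicular cells) and 2 lower (39.7% called). Between TFR and TFH cells 3 were higher, with Lif tested only through TFR cells, and none lower (22.1% called). Between Treg and naïve cells 2 were higher and none lower (9.88% called).

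Ebi3, a subunit of IL-27 and of IL-35, was low in naïve cells (287 and 221 RU), intermediate in TFH (3805 and 3600 RU) and Treg cells (6377 and 4523 RU), and highest in TFR cells (30497 and 29808 RU). It differed by 3.88 ± 0.15 between TFH and naïve cells (adjusted p = 0.000178) and by 2.49 ± 0.15 between TFR and Treg cells (adjusted p = 0.000874). Il27, the other subunit of IL-27, varied little (453 to 624 RU on all arrays) and was slightly lower in TFH than in naïve cells (-0.38 ± 0.08, adjusted p = 0.0194). Il10 had 2162 and 5004 RU in TFR cells, 409 and 71 RU in TFH cells, and 443 and 182 RU in Treg cells, and was not well above background in naïve cells (20 and 46 RU). TFR cells thus had the highest levels of Il10 as well as of Il10ra, and the Il10 difference was 3.54 ± 1.04 against Treg cells (adjusted p = 0.0497) and 4.27 ± 1.04 against TFH cells (adjusted p = 0.0457).

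Ifng rose in both follicular cell types, from 163 and 95 to 1049 and 1804 RU on the TFH arrays (3.47 ± 0.43, adjusted p = 0.00348) and from 130 and 239 to 2451 and 3489 RU on the TFR arrays (4.05 ± 0.43, adjusted p = 0.00341). Both cell types with the lowest Ifngr2 levels thus had the highest Ifng levels. Il6 was well above background only in TFH (63 and 84 RU) and TFR cells (71 and 194 RU). The TFH level was at least 1.24-fold that of naïve cells, and the TFR level at least 2.21-fold that of Treg cells. Il6 is given without a test since it entered the fit through TFH and TFR cells. Of the other ligands of the gp130 family, Clcf1 fell in TFH (-2.19 ± 0.27, adjusted p = 0.00352) and TFR cells (-2.22 ± 0.27, adjusted p = 0.0048), as did Osm (-1.42 ± 0.18, adjusted p = 0.00357, and -1.77 ± 0.18, adjusted p = 0.003). Lif was well above background on both TFR arrays and 1 TFH array, and was at least 2.15-fold higher in TFR than in Treg cells, with no test given since it entered the fit through TFR cells alone, whereas Il11 was well above background on 1 array only. Il22, whose receptor uses the chain encoded by Il10rb, was well above background on all arrays (44 to 498 RU) and was not called between TFH and naïve cells (0.86 ± 0.70, adjusted p = 0.356) or TFR and Treg cells (-0.60 ± 0.70, adjusted p = 0.532).

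Of 11 other chains of the gp130 and class II receptor families, 5 were tested, while Lifr, Osmr, Il20ra, Il22ra1 and Ifnlr1 were not well above background on any array. Ifnar2 was higher (0.91 ± 0.11, adjusted p = 0.00309) and Ifnar1 lower (-0.89 ± 0.15, adjusted p = 0.00906) in TFH than in naïve cells, so that the chains of the type I interferon receptor moved apart. Il20rb was also lower (-0.64 ± 0.13, adjusted p = 0.0151). Relative to Treg cells, TFR cells had lower Ifnar1 (-0.81 ± 0.15, adjusted p = 0.0148) and higher Il11ra1 (0.53 ± 0.15, adjusted p = 0.0473). None of the 5 was called between TFR and TFH or between Treg and naïve cells by limma, with adjusted p of at least 0.0559. Over all genes tested, 22.1% and 9.88% were called there.

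All 11 kinases and STAT genes were tested. In TFH cells, 2 were higher and 2 lower than in naïve cells, where 46.6% of all genes tested were called. Jak2, a kinase used by gp130, the IL-12 receptor and the interferon-gamma receptor, rose from 11442 and 14085 to 33398 and 46383 RU (1.63 ± 0.10, adjusted p = 0.00048), and Stat4, the main STAT of IL-12, rose from 7534 and 6947 to 19008 and 20855 RU (1.46 ± 0.12, adjusted p = 0.000927). Stat2 (-0.49 ± 0.10, adjusted p = 0.0155) and Stat6 (-0.37 ± 0.10, adjusted p = 0.0363) were lower. Between TFR and Treg cells, Jak2 was higher in the former (0.64 ± 0.10, adjusted p = 0.00921), and Jak1 (-0.53 ± 0.12, adjusted p = 0.0238), Stat2 (-0.37 ± 0.10, adjusted p = 0.0389) and Stat6 (-0.38 ± 0.10, adjusted p = 0.0395) were lower. The share of all genes called between TFR and Treg cells was 39.7%. Between TFR and TFH cells 1 was higher and 2 were lower (22.1% of all genes called), and none was called between Treg and naïve cells by limma (9.88%). Stat3 was not called in any of these 4 comparisons.

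Of 13 inhibitors and sheddases, 12 were tested. Between TFH and naïve cells 2 were higher and 4 lower (46.6% of all genes called), and between TFR and Treg cells 1 was higher and 2 lower (39.7%). Between TFR and TFH cells 2 were higher and 1 lower (22.1%), and between Treg and naïve cells 3 were higher and none lower (9.88%). Ptpn11, encoding the phosphatase SHP2 that binds gp130, rose from 10325 and 10969 to 103535 and 143522 RU on the TFH arrays (3.52 ± 0.13, adjusted p = 0.000174) and was 1.33 ± 0.13 higher in TFR than in Treg cells (adjusted p = 0.00268). Cish, a STAT5 target and inhibitor, fell in TFH cells (-1.96 ± 0.14, adjusted p = 0.000666), as did Pias1 (-0.64 ± 0.15, adjusted p = 0.0223). Socs2 (-1.55 ± 0.27, adjusted p = 0.0114) and the phosphatase gene Ptpn2 (-0.63 ± 0.09, adjusted p = 0.00647) fell from Treg to TFR cells. Socs3, the inhibitor that binds gp130, was not called between TFH and naïve cells (-0.83 ± 0.52, adjusted p = 0.246) or between TFR and Treg cells (-1.30 ± 0.52, adjusted p = 0.107), and its arrays of 1 cell type differed strongly (27186 and 4059 RU in TFH cells).

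More listed targets of interferon-gamma were lower than higher in both follicular cell types. All 12 were tested, and 6 were lower and 1 higher in TFH than in naïve cells, and 8 lower and 1 higher in TFR than in Treg cells. Over all genes tested, 25.7% were lower and 20.9% higher in the first comparison and 21.0% lower and 18.7% higher in the second, and 7 of 12 is near the 46.6% called overall. The median difference of the list was -0.60 and -0.82. Gbp2, a guanylate-binding protein, fell from 17643 and 20428 to 7204 and 7868 RU on the TFH arrays (-1.33 ± 0.10, adjusted p = 0.000832) and from 28284 and 33871 to 9033 and 12007 RU on the TFR arrays (-1.57 ± 0.10, adjusted p = 0.00107). Igtp, an immunity-related GTPase, was also lower in TFH (-0.91 ± 0.08, adjusted p = 0.00127) and TFR cells (-1.27 ± 0.08, adjusted p = 0.00106). In contrast, the chemokine gene Cxcl10 rose from 116 and 118 to 859 and 1181 RU on the TFH arrays (3.11 ± 0.17, adjusted p = 0.000359) and from 704 and 632 to 6353 and 7874 RU on the TFR arrays (3.41 ± 0.17, adjusted p = 0.00063). Treg cells had 5 of the 12 higher than naïve cells and none lower (9.88% of all genes called), and TFR cells had 4 higher than TFH cells and none lower (22.1%). Many of these genes also respond to type I interferon, and whether their levels follow the receptor chains was not tested.

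**Figure D4:**
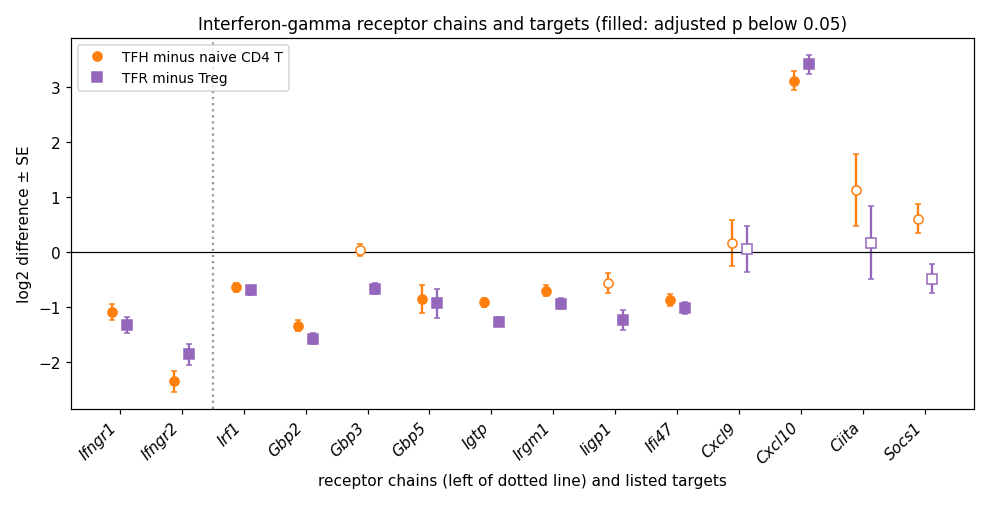
Log2 difference with standard error (y axis) of Ifngr1, Ifngr2 and the 12 listed interferon-gamma targets (x axis) between TFH and naïve cells (orange circles) and between TFR and Treg cells (purple squares). Filled symbols have an adjusted p below 0.05. Of the targets, 6 and 8 filled symbols lie below 0, and Cxcl10 lies above 0 in both.

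Targets of IL-12 and STAT4 did not move in 1 direction. Of 8 listed, 7 were tested. TFH cells had 2 above and 2 below naïve cells (46.6% of all genes tested called), and TFR cells had 3 above and 1 below Treg cells (39.7% called). Against TFH cells, TFR cells had 4 above and none below (22.1% called). Of these 4, Il18rap was tested only through TFR cells and Gzmb only through Foxp3+ cells. Treg cells had 1 above, again Gzmb, and 1 below naïve cells (9.88% called). Prf1, the gene of perforin, fell in TFH (-2.74 ± 0.10, adjusted p = 0.000166) and TFR cells (-1.69 ± 0.10, adjusted p = 0.000802). Il18r1, an IL-18 receptor chain, fell from 3243 and 3686 to 466 and 799 RU on the TFH arrays (-2.50 ± 0.16, adjusted p = 0.000546), but rose from 4033 and 5142 RU in Treg to 10863 and 15966 RU on the TFR arrays (1.53 ± 0.16, adjusted p = 0.00333). Tbx21, encoding T-bet, rose from 499 and 554 RU in Treg to 2042 and 1746 RU on the TFR arrays (1.84 ± 0.21, adjusted p = 0.00418).

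Of 13 listed targets of IL-6, IL-23, IL-27, IL-10 and STAT3, 12 were tested. Among these, 8 were higher and none lower both in TFH than in naïve cells and in TFR than in Treg cells. Both counts of 8 include Il1r1, tested only through follicular cells. Over all genes tested, 20.9% and 18.7% were higher and 25.7% and 21.0% lower in these comparisons. TFR cells had 3 higher and 4 lower than TFH cells (22.1% of all genes called), and Treg cells 4 higher and 1 lower than naïve cells (9.88%). The list holds Bcl6, Batf and Maf, which the authors name among key genes of the TFH pathway, and Il21, which they name as a TFH marker. Its median differences were 1.87 and 1.54. Il21 rose from 259 and 182 to 23726 and 26350 RU on the TFH arrays (6.85 ± 0.27, adjusted p = 0.000186), and at 1555 and 2386 RU in TFR cells it was at least 36.3-fold higher than in Treg cells, where it was not well above background (adjusted p = 0.000477). Il1r1, which unlike Il21 entered the fit through the follicular cells alone, was at least 88.9-fold higher in TFH than in naïve cells. In TFR cells it was at least 6.08-fold higher than in Treg cells. Maf rose by 5.14 ± 0.25 in TFH cells (adjusted p = 0.000274), and Bcl6 by 2.40 ± 0.15 in TFR cells (adjusted p = 0.00103). Genes of proliferation moved with both follicular cell types. Of 6 listed, 5 were tested, with Cdk1 tested only through follicular cells. All 5 were called higher in TFH than in naïve cells (median 2.84) and in TFR than in Treg cells (median 2.79). In TFR compared to TFH cells, 4 of 5 were called higher. Over all genes tested, 20.9%, 18.7% and 11.7% were higher in these comparisons. The summed level of the 6 listed genes was 2180 and 1588 RU in naïve and 16002 and 10535 RU in TFH cells. It was 5021 and 4434 RU in Treg and 39601 and 25781 RU in TFR cells. The part of proliferation in these differences was not tested.

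For the 6 chains whose cell type means span at least 1 on the log2 scale, the genes with the most similar pattern over the 8 arrays were sought among genes well above background on all arrays. These correlations share arrays, normalization and the division into 4 cell types, and are descriptions. Il10ra was most like Ncf4 (Pearson r = 0.995), a subunit of the phagocyte NADPH oxidase, and Dgat2 (r = 0.992), an enzyme of triglyceride synthesis. Ifngr2 was most like an unnamed probe (r = 0.995) and Daf2 (r = 0.994), and Ifngr1 was most like Nod1 (r = 0.989), an intracellular sensor of bacterial peptidoglycan, and Slc35g1 (r = 0.988). Il12rb1 was followed by Nsmce2 (r = 0.987) and Slc12a8 (r = 0.986), Il23r by Egfl7 (r = 0.980) and Cntrl (r = 0.977), and Il6ra by AI854703 (r = 0.978) and Ash1l (r = 0.978), a histone methyltransferase. For Il23r, 5 of the 8 values are at the floor.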

How the data were processed

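The authors extracted spots with Agilent Feature Extraction 10.7.3.1 and deposited the background-corrected spot intensity of every array and a table of normalized intensities, made by averaging of spots, quantile normalization, scaling of the 75th percentile to 1500 and a floor of 20. Here, these steps were repeated from the spots, after exclusion of flagged spots, of outliers by the interquartile range and of spots whose pixel intensities varied by a coefficient over 0.5. This kept 86.5% to 89.2% of 157716 spots per array, and log2 values correlated with the deposited table at r = 0.999.

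Tested were genes whose brightest probe exceeded background clearly in 1 cell type or more, on d12 and d25 alike. Differences were estimated by lmFit and eBayes of limma 3.58.1 in R 4.3.3, from a model of cell type plus day with 3 residual degrees of freedom (prior 1.90). The residual includes any change of a difference between days. Where a side was not well above background, a fold is a lower bound against the lowest signal well above background on each array. Its adjusted p comes from the fit on floored values. The number of arrays limits precision.

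Alternatives were scaling without quantile normalization, normexp background correction, the deposited table, no exclusion of spots, no floor, no or a stricter filter on dim probes, the median of all probes, no day term, slide as a block, a trended and robust prior, a minimum difference, leaving out each array, and each day alone without a test. The 10 chains and the lists of ligands, receptors, kinases, inhibitors, targets and markers were chosen with earlier results of these data known. Named are all chains, all ligands, the kinases and STATs called in TFH versus naïve or TFR versus Treg cells (1 result is not reported here), and up to 3 called genes of each other list with the largest difference in these 2 comparisons. Other genes (Socs3, Stat3, Lifr, Osmr, Il20ra, Il22ra1, Ifnlr1) were named after their values were seen. Promoters were read from RefSeq, build GRCm38.p6. Probe positions are those of the files, build NCBI37, and their place within exons was not analysed here.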

Additional observations from a re-analysis of the deposited data

Results flagged for a closer look

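For 3 chains, the change from Treg to TFR cells differed from the change from naïve to TFH cells by the test of that difference. It was -0.78 for Il6ra (-0.81 at d12 and -0.75 at d25), -0.96 for Il6st (-1.07 and -0.85) and -1.49 for Il12rb1 (-1.71 and -1.26), each on the log2 scale. The sign was the same at both days for all 3. Each estimate is the mean of its 2 day values, so that this is no separate check. The calls of Il6ra and Il6st were lost when any single array was left out. That of Il12rb1 was lost without the naïve array of d12 or any array of Treg or TFR cells. Without the filter on dim probes, none of the 3 was called by limma (adjusted p = 0.105, 0.0851 and 0.0583). The second Il12rb1 probe gave -0.55.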

How the results depend on the processing

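Differences of the 9 tested chains were recomputed under up to 20 alternatives. Of 54 results in 6 comparisons, 26 were called, with Il23r in TFR versus Treg cells through its selection, 8 of them under every alternative, and all 26 kept their direction. Requiring an absolute log2 difference of at least 1 left 3 chains called for TFH versus naïve, 4 for TFR versus Treg, 1 for TFR versus TFH, 2 for Treg versus naïve cells and 1 for the difference of both changes. Without the filter on dim probes, 5 were called for TFR versus Treg, 3 for TFR versus TFH, 1 for Treg versus naïve cells and 0 for the difference of both changes. With slide as a block, 3 were called for TFR versus TFH, 1 for Treg versus naïve cells and 1 for the difference of both changes. Without the day term (no replicate block), 1 was called for the latter. For these settings the share of all genes called is not given here, so that a lower count is not read as a property of the chains. Leaving out 1 array, for which the remaining array of that cell type is assumed to vary like the others, gave 4 to 5 chains called for TFH versus naïve, 4 to 8 for TFR versus Treg, 1 to 6 for TFR versus TFH, 1 to 4 for Treg versus naïve cells, 0 to 2 for the difference of both changes and 0 for the days. The share of all genes called was then 27.4% to 41.3%, 16.0% to 42.8%, 5.99% to 18.6%, 2.64% to 12.0% and 1.90% to 7.01% in the first 5 of these comparisons.

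Only differences that were not called changed sign. Under scaling without quantile normalization these were Treg versus naïve cells for Il27ra (-0.0350) and Il6st (-0.0440) and the day difference of Ifngr1 (-0.0455). With slide as a block they were Treg versus naïve cells for Ifngr2 (0.00586), Il27ra (-0.00170) and Il6ra (0.0858), and under normexp Il6ra (0.00352). When 1 array was left out, the ranges that crossed 0 were, for the days, -0.0345 to 0.131 (Ifngr1), -0.13 to 0.0159 (Il10ra) and -0.522 to 0.135 (Il23r), for TFH versus naïve cells, -0.116 to 0.199 (Il10ra), -0.00363 to 0.264 (Il10rb) and -0.0677 to 1.63 (Il23r), and for TFR versus TFH cells, -0.00156 to 0.578 (Ifngr2). For Treg versus naïve cells they were -0.0273 to 0.0711 (Il27ra), -0.111 to 0.0882 (Il6ra), -0.0541 to 0.142 (Il6st) and -0.193 to 0.193 (Il23r). The cause was not tested. The arrays carry no pairing numbers, and blocks were day and slide. With 3 residual degrees of freedom, small differences stay below detection, and Il12rb2 and most Il23r values are limited by background.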
